A study of Homo sapiens with 4 samples.

Results

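The 9 genes *ALK*, *LTK*, *RET*, *GFRA1*, *GFRA2*, *GFRA3*, *NTRK2*, *NTRK3* and *NGFR*, of 57820 genes in the count table, were examined in SK-N-SH cells with and without *RP5-998N21.4* overexpression (*RP5-998N21.4* OE). They were chosen by name as the ALK family, the receptor *RET* with its co-receptors, and the neurotrophin receptors *NTRK2*, *NTRK3* and *NGFR*. The SK-N-SH line is established and comes from a human neuroblastoma. In 2 libraries the cells carried a recombinant lentivirus with the lncRNA *RP5-998N21.4*, and in the other 2 they carried the lentivirus without an insert (vector control). The control libraries are titled WT, but their treatment is given as the empty vector, and cells without virus were not analysed here. In the study's methods the lentiviral insert is driven by the EF1a promoter and the virus was packaged in HEK293T cells. No time between transduction and harvest is given with the labels, and nothing there says that the 2 libraries of a condition came from separate cultures, so the p-values measure only the spread between these libraries.

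Receptor tyrosine kinases at the cell surface bind a secreted ligand, pair up, and phosphorylate each other and a set of adaptor proteins inside the cell. ALK and its closest relative LTK are activated by the ALKAL ligands (the genes *FAM150A* and *FAM150B*). RET is different, since it does not bind its ligands alone. A GFRA co-receptor anchored in the outer membrane binds the ligand first, with GFRA1 preferring GDNF, GFRA2 neurturin and GFRA3 artemin, and the pair then engages RET. Each Trk receptor prefers certain neurotrophins: NTRK2 (TrkB) for BDNF and neurotrophin-4, and NTRK3 (TrkC) for neurotrophin-3. NGFR (p75) has no kinase domain and binds all neurotrophins and, together with sortilin, their unprocessed forms. These receptors guide survival and differentiation of neural crest derivatives, the lineage of sympathetic neurons and of neuroblastoma, and activating mutations of *ALK* are a known driver of that tumour.

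The deposited counts are given per transcript, and transcripts of 1 receptor gene can encode different proteins or none. Of 63 listed transcripts of the 9 genes, 14 had a count in any library. The stretches shown here are the ends of coding sequences at which the transcripts of *RET*, *NTRK2* and *NTRK3* part. Capitals mark coding bases that the transcript does not share with the one it is set against, lower case the shared bases just before, and stop codons are left out. All were read from the GRCh37 genome (hg19) with GENCODE coding coordinates. *RET* on chromosome 10 ends its coding sequence in 2 ways, and all counts fell on RET-202, a protein of 1114 codons with the long C-terminal tail commonly named RET51, while RET-201 (1072 codons, RET9) had 0 counts in each library. RET-202 is shown with the first 60 of its 155 own bases (chr10:43623560-43623714, plus strand), and RET-201 with all 29 (chr10:43622171-43622199).
RET-202: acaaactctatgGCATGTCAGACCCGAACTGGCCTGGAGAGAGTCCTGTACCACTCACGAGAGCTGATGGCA
RET-201: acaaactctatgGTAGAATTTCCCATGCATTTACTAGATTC

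For *NTRK2* on chromosome 9 the difference is larger, because the 2 annotated transcripts with counts end their coding sequence before the kinase domain. NTRK2-207 (477 codons) and NTRK2-202 (537 codons) each end in a short tail of their own, of 35 bases (chr9:87425457-87425491, plus strand) and 26 bases (chr9:87486704-87486729), where NTRK2-201 (838 codons) goes on for 1118 and 881 further coding bases and encodes the kinase. The NTRK2-201 line gives the first 60 bases after the point where NTRK2-207 departs.
NTRK2-207: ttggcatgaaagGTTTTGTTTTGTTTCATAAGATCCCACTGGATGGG
NTRK2-202: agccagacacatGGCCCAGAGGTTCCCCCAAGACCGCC
NTRK2-201: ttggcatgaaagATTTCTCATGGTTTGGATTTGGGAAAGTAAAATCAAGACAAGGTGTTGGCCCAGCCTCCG

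*NTRK3* on chromosome 15 parts in the same way into NTRK3-201 (612 codons, without the kinase domain) and NTRK3-203 (825 codons, with it), and both had counts. The first 60 of 251 own bases of NTRK3-201 (chr15:88522579-88524591, minus strand) and of 890 own bases of NTRK3-203 (chr15:88420169-88483984) are shown. The intervals span introns.
NTRK3-201: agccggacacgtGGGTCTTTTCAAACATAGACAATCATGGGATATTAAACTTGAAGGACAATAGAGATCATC
NTRK3-203: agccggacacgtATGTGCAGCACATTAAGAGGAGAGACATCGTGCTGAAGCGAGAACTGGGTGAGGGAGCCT

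The overexpression was visible in both OE libraries. *RP5-998N21.4* had 32 and 33 counts with the empty vector and 2407 and 2808 with the insert, a log2 fold change of 6.11 (SE 0.11, edgeR adjusted p = 0.0109), although a near-identical annotated gene may share its reads. The libraries held between 23785164 and 28307591 counts. Genes were tested with edgeR's quasi-likelihood test on counts summed per gene, and a call needed an adjusted p under 0.01 with a log2 fold change beyond 0.5 in either direction. Of 20528 genes that passed the filter on low counts, edgeR called 0 (0%), limma-voom 0 and DESeq2 1800, and 4269 had an unadjusted edgeR p under 0.05. An exact permutation test of 2 libraries against 2 cannot give a two-sided p below 0.333, so the tests borrow the spread from all genes.

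Levels of *ALK*, *RET* and *NGFR* were higher in both OE libraries, by 1.86-fold, 1.77-fold and 3.61-fold, and that of *GFRA1* by 1.08-fold. All fitted differences were above 0, but that of *NTRK3* turned below 0 when either of 2 libraries was left out. Of the 9 genes, 8 passed the filter and *GFRA3* did not. By edgeR 0 of the 8 were called, with a background of 0%. At an unadjusted p under 0.05 there were 4 higher in OE (*ALK*, *RET*, *GFRA2* and *NGFR*) and 0 lower, where 10.1% of all tested genes were higher and 10.7% lower. DESeq2 called the same 4 genes as higher and 0 as lower, with backgrounds of 4.35% and 4.42%, and limma-voom called 0. The OE libraries were both above the 2 controls in 7 of the 9 genes and both below in 0, where 27.8% of tested genes lay above and 27.6% below. The median log2 fold change of the 8 tested genes was 0.98, beside 0.01 for all tested genes. *GFRA2* and *NTRK2* reached the filter level of 0.411 CPM in 2 libraries only through OE, so the filter favoured a higher value there. Among the other 6 tested genes 3 were higher and 0 lower at an unadjusted p under 0.05, in 5 the OE libraries were both above the controls, and the median log2 fold change was 0.90.

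*ALK* (ENSG00000171094.11, chr2:29415640-30144452, minus strand) was 1.86-fold higher in OE. It had 111 and 119 counts with the empty vector and 229 and 265 in the OE libraries, or 4.77 and 5.06 against 9.13 and 9.16 CPM, where CPM are counts relative to library sizes normalized by TMM. The replicates lay close together in each condition and the conditions did not overlap. The log2 fold change was 0.89 (SE 0.14, unadjusted p = 0.00377, edgeR adjusted p = 0.0933), and leaving out single libraries gave 0.85 to 0.93. Over the alternatives the adjusted p ran from 1.46e-05, by DESeq2, to 0.300. All counts fell on ALK-201, the transcript of the full receptor of 1620 codons. The exons of *ALK* share 135 bases with *CLIP4* on the opposite strand, and since the use of strand in counting is not given in the sources used here, reads of the 2 genes there cannot be told apart.

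*RET* (ENSG00000165731.13, chr10:43572512-43625799, plus strand) was the most abundant of the receptors and differed by nearly the same factor. It had 1121 and 979 counts with the empty vector and 2083 and 2197 in OE, or 48.1 and 41.7 against 83.0 and 76.0 CPM. The gap between the conditions was several times the gap within them. Mean levels were 44.9 ± 4.58 CPM (SD, n = 2) and 79.5 ± 4.99 CPM (SD, n = 2), and the log2 fold change was 0.82 (SE 0.12, unadjusted p = 0.00313, edgeR adjusted p = 0.0893). Without single libraries the value stayed between 0.72 and 0.93, and over the alternatives the adjusted p ran from 1.41e-08, again by DESeq2, to 0.296. Every one of these counts was on RET-202, the transcript with the RET51 coding sequence. That fixes only how the reads were placed, since both coding sequences share most of their bases.

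*ALK* and *RET* differed by similar factors, and the 250 bases before their annotated starts are shown for that reason. They come from the RefSeq promoter table (GRCh38.p14), and the same letters were found once each in GRCh37, at chr2:30144453-30144702 for *ALK* (minus strand) and chr10:43572267-43572516 for *RET* (plus strand). Capitals mark GC boxes, the letters GGGCGG on either strand (CCGCCC on the strand shown). *ALK* held 4 and *RET* held 5 matches, some of the latter overlapping, and 42.6% of 35116 promoters of this length held at least 1. An E-box, CANNTG on either strand, occurred 2 times in the *ALK* stretch and 0 times in that of *RET*, with at least 1 in 61.8% of the promoters. Both stretches were rich in G and C, at 71.6% and 79.6%. A second entry of each gene, at chr2:29446690-29446939 and chr10:43599963-43600212, is not shown. These held 0 and 1 GC boxes and 1 and 2 E-boxes. Among the other members, the entry of *NTRK3* held 2 GC boxes and that of *LTK* 0. A match is a description of the letters and not of binding, and its part in the fold changes was not tested.
ALK: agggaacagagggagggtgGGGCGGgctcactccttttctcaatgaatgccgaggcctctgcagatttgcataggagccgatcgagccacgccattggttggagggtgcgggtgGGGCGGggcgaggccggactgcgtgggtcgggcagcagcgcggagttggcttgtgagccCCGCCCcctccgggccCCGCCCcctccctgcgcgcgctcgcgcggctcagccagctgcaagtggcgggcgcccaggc
RET: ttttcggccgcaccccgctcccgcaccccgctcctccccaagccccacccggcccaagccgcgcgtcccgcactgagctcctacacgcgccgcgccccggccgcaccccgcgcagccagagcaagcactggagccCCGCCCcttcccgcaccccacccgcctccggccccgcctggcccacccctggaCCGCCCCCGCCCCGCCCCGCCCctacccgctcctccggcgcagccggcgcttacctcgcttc

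*LTK* (ENSG00000062524.11, chr15:41795835-41806085, minus strand), the relative of *ALK*, was lower and more variable. It had 34 and 18 counts with the empty vector and 48 and 80 in OE, or 1.46 and 0.766 against 1.91 and 2.77 CPM. The conditions did not overlap, but the gap between the nearest libraries was smaller than the gap within either condition. The log2 fold change of 1.07 (SE 0.44, edgeR adjusted p = 0.286) did not pass the test, and it ran from 0.68 to 1.60 as single libraries were left out. All *LTK* counts were placed on LTK-205, which the annotation gives as a retained intron without a coding sequence. LTK-205 is 3444 bases long, beside 3.491 kilobases for all listed exons together, so reads of coding transcripts could be placed on it. The counts thus do not tell whether transcripts that encode the receptor were present.

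**Figure D1:**
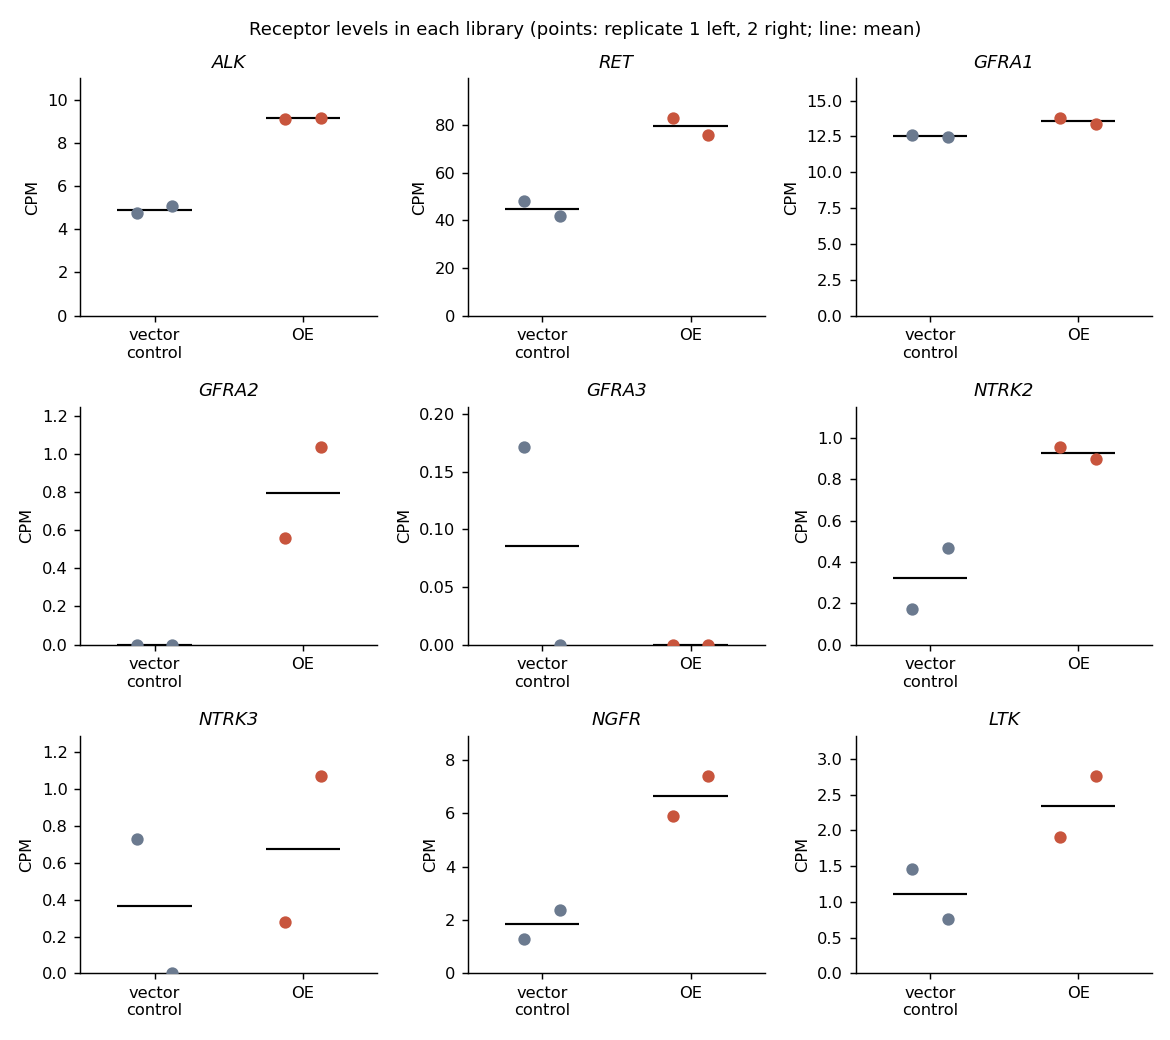
Level of each receptor gene in CPM (vertical axes, each from 0, with its own range) in the 2 vector control and 2 OE libraries, with replicate 1 on the left, replicate 2 on the right and a line at the mean. The OE points lie above both control points in 7 panels, and in *NTRK3* and *GFRA3* the conditions overlap.

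Among the co-receptors of RET, *GFRA1* had by far the most counts. *GFRA1* (ENSG00000151892.10, chr10:117816436-118036315, minus strand), which presents GDNF, had 294 and 293 counts with the empty vector and 346 and 387 in OE, or 12.6 and 12.5 against 13.8 and 13.4 CPM. The OE libraries lay only slightly above the control libraries. Its log2 fold change was 0.11 (SE 0.12, edgeR adjusted p = 0.631), so its difference was no larger than its error, while that of its partner *RET* was several times its error. Whether the 2 genes differ in response was not tested. Apart from 3 counts in the first OE library, all its counts were on GFRA1-204.

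*GFRA2* (ENSG00000168546.6, chr8:21547910-21669869, minus strand), the neurturin co-receptor, had 0 and 0 counts with the empty vector and 14 and 30 in OE. A library without a count can still hold up to 3, or 0.128 CPM, and against that limit the OE mean of 0.798 CPM was at least 6.22-fold higher. Both OE libraries were well above the limit, though they differed from each other by about as much as the lower one differed from 0. The edgeR adjusted p was 0.133, and over the alternatives it ran from 0.000855, by DESeq2, to 0.325. *GFRA3* (ENSG00000146013.6, chr5:137588069-137610310, minus strand), which binds artemin, had 4 counts in the first vector control library and 0 in the other three, and was not tested. A difference in so few counts was not detectable at this depth.

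*NGFR* (ENSG00000064300.4, chr17:47572655-47592370, plus strand) had the largest difference of the receptors with counts in every library. There were 30 and 56 counts with the empty vector and 148 and 214 in OE, or 1.29 and 2.38 against 5.90 and 7.40 CPM. The lowest OE library was above the highest control library by more than the gap within either condition. The log2 fold change was 1.85 (SE 0.37, unadjusted p = 0.00917, edgeR adjusted p = 0.122), with 1.48 to 2.36 when single libraries were left out. Over the alternatives the adjusted p ran from 7.18e-05, by DESeq2, to 0.296. Exons of the gene overlap *NGFR-AS1* by 202 bases and the antisense gene ENSG00000279036 by 924 bases, and reads there cannot be assigned without strand.

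*NTRK2* (ENSG00000148053.11, chr9:87283290-87710666, plus strand), the BDNF receptor, was near the limit of detection. It had 4 and 11 counts with the empty vector and 24 and 26 in OE, or 0.172 and 0.468 against 0.956 and 0.899 CPM. The OE libraries were alike and above both controls, which lay further apart. The log2 fold change of 1.52 (SE 0.58, edgeR adjusted p = 0.267) did not pass the test, and it ran from 0.98 to 2.40 as single libraries were left out, the latter without the second vector control library. Of its counts, 4 of 4 and 11 of 11 in the vector control and 24 of 24 in the first OE library were on the transcripts NTRK2-207 and NTRK2-202. In the second OE library 22 of 26 were (84.6%, exact 95% interval 65.1% to 95.6%, for counting error only). The other 4 counts were on a transcript that the annotation used here does not list. A difference in this share between the conditions was not detectable at this depth, since the interval of the first control library alone reached down to 39.8%.

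*NTRK3* (ENSG00000140538.12, chr15:88402982-88800022, minus strand), the receptor of neurotrophin-3, had 17 and 0 counts with the empty vector and 7 and 31 in OE. Each condition held a high and a low library, and the conditions overlapped. Its log2 fold change of 0.90 (SE 1.55, edgeR adjusted p = 0.788) turned to -0.10 without the second vector control library and to -0.38 without the second OE library, and was fitted at 7.15 without the first vector control library, which leaves the control at 0 counts. The kinase-less NTRK3-201 took 9 of 17, 5 of 7 and 24 of 31 counts in the 3 libraries with any, and NTRK3-203 took 8, 0 and 7. The shares of NTRK3-201 were 52.9% (exact 95% interval 27.8% to 77.0%), 71.4% (29.0% to 96.3%) and 77.4% (58.9% to 90.4%), which overlap.

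**Figure D2:**
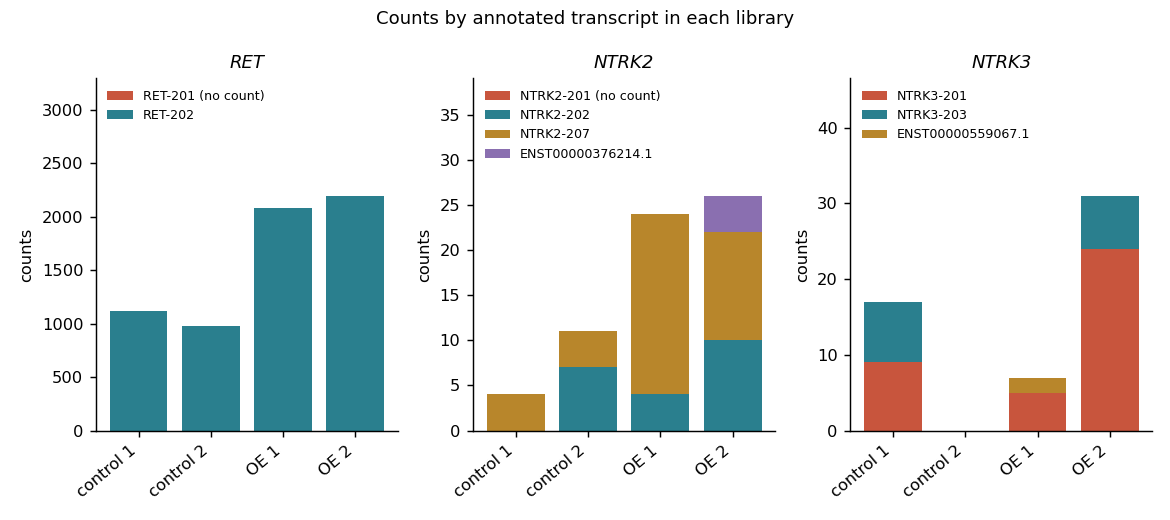
Counts (vertical axis) on each annotated transcript of *RET*, *NTRK2* and *NTRK3* in the 4 libraries, stacked, with RET-201 and NTRK2-201 listed although they had no count. *RET* is on RET-202 in every library, *NTRK2* is on short coding transcripts but for 4 counts, and *NTRK3* is mixed, with no count in the second vector control library.

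Compared per kilobase of exon, *RET* stood far above the other receptors in both conditions. In the vector control its level was 7.02 ± 0.716 CPM per kilobase (SD, n = 2), ahead of *GFRA1* at 1.31 and *ALK* at 0.706 CPM per kilobase. *NGFR* at 0.443 and *LTK* at 0.319 CPM per kilobase followed and their libraries overlapped. *GFRA3*, *NTRK2* and *NTRK3* lay between 0.0137 and 0.0432 CPM per kilobase, neighbours in this order with overlapping libraries, and *GFRA2* was at 0. In OE the order was *RET* at 12.4 ± 0.780 CPM per kilobase (SD, n = 2), then *NGFR* at 1.61 and *GFRA1* at 1.41, which overlapped, *ALK* at 1.31, *LTK* at 0.670, *GFRA2* at 0.138, *NTRK2* at 0.0453 and *NTRK3* at 0.0253 CPM per kilobase. *NGFR* thus stood below *ALK* in the vector control and level with *GFRA1* in OE. With the length of the most abundant transcript in place of all listed exons, *GFRA1* was at 2.78 and *NGFR* at 1.95 CPM per kilobase in OE. On that scale the order of the scarce receptors turned, with *NTRK3* at 0.163, *GFRA2* at 0.160 and *NTRK2* at 0.124 CPM per kilobase in OE. In the vector control *NTRK3* was then at 0.0883, *GFRA3* at 0.0432 and *NTRK2* at 0.0427 CPM per kilobase, so the order among these genes depends on the length used.

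**Figure D3:**
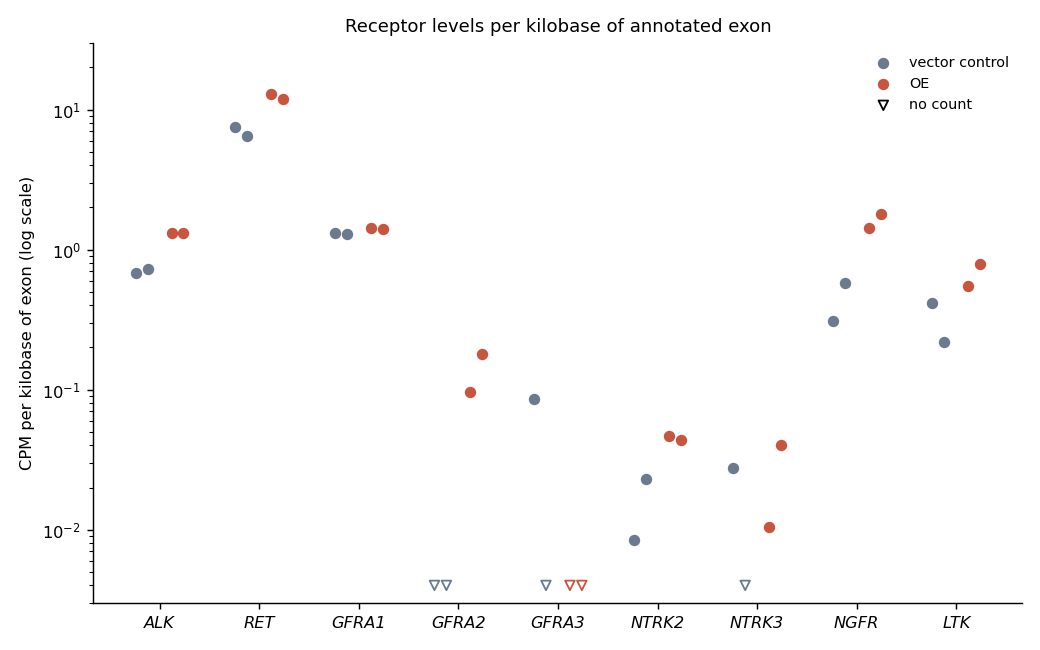
Level of each receptor in CPM per kilobase of exon (log axis) in each library, with open triangles at the bottom for libraries without a count. *RET* is the highest in both conditions, and *GFRA2*, *GFRA3*, *NTRK2* and *NTRK3* are the lowest.

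Transcripts of several ligands of these receptors were present in the same cells. Of 12 ligand genes, 10 were tested, edgeR called 0, and 3 had an unadjusted p under 0.05, all higher in OE (*GDNF*, *BDNF* and *FAM150B*), beside 10.1% of all tested genes higher and 10.7% lower, and with a median log2 fold change of 0.38. In 6 of the 10 both OE libraries lay above both controls and in 1 they lay below, beside 27.8% and 27.6% of all tested genes. *FAM150B* passed the filter only through the OE libraries, and without it 2 of 9 ligands were higher at that p and 5 lay above. *GDNF*, the ligand of the GFRA1-RET complex, had 201 and 210 counts with the empty vector and 394 and 423 in OE, with no overlap and with replicates close together. Its log2 fold change of 0.79 (SE 0.12, edgeR adjusted p = 0.0950) was close to that of *RET*, and it was the 1 ligand that DESeq2 called. *BDNF*, the ligand of NTRK2, had 890 and 864 against 1315 and 1421 counts, a log2 fold change of 0.44 (SE 0.09, edgeR adjusted p = 0.131). *FAM150B*, which encodes the ALK and LTK ligand ALKAL2, was near the detection limit, with 4 and 3 against 11 and 16 counts, a log2 fold change of 1.70 (SE 0.53, edgeR adjusted p = 0.207).

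The remaining ligands showed smaller or less certain differences. The neurturin gene *NRTN* had 82 and 72 against 131 and 102 counts (log2 fold change 0.41, SE 0.27), and its value was 0.0987 without the first OE library and 0.66 without the second. The artemin gene *ARTN* had 29 and 37 against 45 and 56 counts (log2 fold change 0.40, SE 0.25, and 0.24 to 0.58 without single libraries). Their co-receptors *GFRA2* and *GFRA3* had few or no counts, as described. *NTF4*, encoding neurotrophin-4, was 1 of the 2 tested ligands with a fitted difference below 0. It had 11 and 36 counts with the empty vector and 11 and 13 in OE, a log2 fold change of -1.17 (SE 0.70) that was -0.09 without the second control library. *MDK* and *PTN*, encoding the growth factors midkine and pleiotrophin, had log2 fold changes of 0.36 (SE 0.18, and 0.19 to 0.55 without single libraries) and 0.08 (SE 0.22), and *MDK* was the most abundant ligand at 79.2 CPM per kilobase over the 4 libraries. *NTF3*, the ligand gene of NTRK3, and *FAM150A* had 0 counts in every library.

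Other receptors and co-receptors differed in both directions. Of 16 genes in this list, 12 were tested, edgeR called 0, and 5 were higher (among them *SORCS1*, *LINGO2*, *LINGO1* and *RTN4R*) and 3 lower (*SDC3*, *SORT1* and *SORL1*) at an unadjusted p under 0.05, with backgrounds of 10.1% and 10.7%. *LINGO1*, *RTN4R* and *SORL1* were named after their values were seen. *SORCS1*, a receptor of the sortilin family, had 156 and 203 against 491 and 571 counts, a log2 fold change of 1.36 (SE 0.18, edgeR adjusted p = 0.0780). *SORT1*, sortilin itself, the partner of NGFR for unprocessed neurotrophins, had 199 and 193 against 158 and 163 CPM, a log2 fold change of -0.29 (SE 0.07, edgeR adjusted p = 0.140). *SDC3*, a syndecan that binds GDNF, had 454 and 477 against 326 and 318 CPM, a log2 fold change of -0.53 (SE 0.06, edgeR adjusted p = 0.0662). *LINGO2* had 262 and 297 against 421 and 521 counts, a log2 fold change of 0.54 (SE 0.13, edgeR adjusted p = 0.153).

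Most adaptors below the receptors overlapped between the conditions. Of 30 genes 27 were tested, edgeR called 0, 3 were higher (*SHC2*, *GAB2* and *IRS2*) and 1 lower (*SHC3*) at an unadjusted p under 0.05, and the median log2 fold change was -0.04. These counts lie near or below the backgrounds of 10.1% and 10.7%. Both OE libraries lay above both controls in 5 genes and below in 5, against 27.8% and 27.6% of all tested genes, and the other 20 of the 30 did not separate the conditions. In this list 1 gene passed the filter only through the OE libraries and 1 only through the controls. Among the other 25 tested genes 5 lay above and 4 below. The SHC proteins dock on phosphorylated Trk, RET and ALK receptors, and 2 neural members differed in opposite directions. *SHC2* had 91 and 89 counts with the empty vector and 215 and 209 in OE (log2 fold change 1.04, SE 0.17, edgeR adjusted p = 0.0984). *SHC3* had 463 and 450 against 310 and 299 counts (log2 fold change -0.78, SE 0.15, edgeR adjusted p = 0.113). The docking proteins *GAB2* and *IRS2* had log2 fold changes of 0.45 (SE 0.09) and 0.30 (SE 0.07). *SHC1*, the most abundant adaptor per kilobase by its mean over the 4 libraries but not in the first vector control or the second OE library, had 897 and 21723 counts with the empty vector and 15051 and 1869 in OE. Each condition thus held a high and a low *SHC1* library, and the transcript ENST00000448116 alone had 1, 21684, 15000 and 0 counts in them.

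Intracellular partners of NGFR were mostly lower or alike. All 10 were tested, edgeR called 0, and at an unadjusted p under 0.05 there was 1 higher (*BEX1*) and 3 lower (*MAGED1*, *NDN* and *RIPK2*), beside 10.1% and 10.7% of all tested genes, with a median log2 fold change of -0.08. *MAGED1*, encoding the p75 binding protein NRAGE, had 225 and 258 CPM in the vector control and 140 and 152 CPM in OE, a log2 fold change of -0.72 (SE 0.10, edgeR adjusted p = 0.0871), which was -1.86 (edgeR adjusted p = 0.851) on its most abundant transcript alone. Over the alternatives its adjusted p ran from 5.69e-09, by DESeq2, to 0.851. *RIPK2*, a kinase recruited to the p75 death domain, had 64.9 and 66.1 against 42.0 and 44.6 CPM, a log2 fold change of -0.60 (SE 0.09, edgeR adjusted p = 0.0911). *NDN*, encoding necdin, had 73.4 and 66.9 against 49.8 and 44.3 CPM, a log2 fold change of -0.58 (SE 0.11, edgeR adjusted p = 0.120). In 4 of the 10 genes, these 3 among them, both OE libraries lay below both controls. In 2 they lay above, beside 27.6% of all tested genes below and 27.8% above. *BEX1* had 720 and 782 against 1276 and 1286 counts, a log2 fold change of 0.57 (SE 0.12, edgeR adjusted p = 0.127). *ARHGDIA*, encoding a GDP dissociation inhibitor that binds p75, the most abundant of the list per kilobase, was at 651 and 779 against 726 and 666 CPM, and the conditions overlapped.

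**Figure D4:**
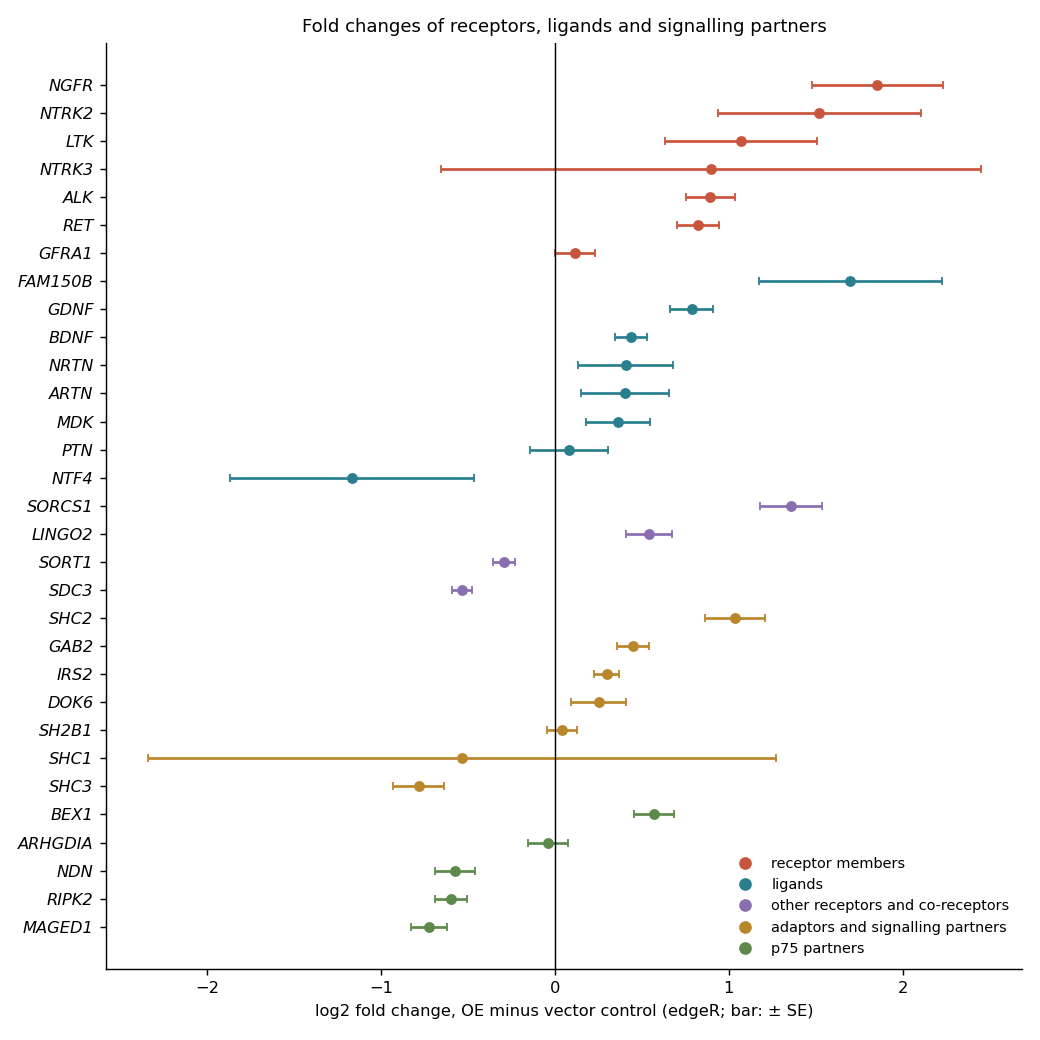
Log2 fold change, OE minus vector control, with its SE from edgeR (horizontal axis) for the named receptors, ligands, co-receptors, adaptors and p75 partners, in colours by list. *GFRA2* is left out because it had no control counts, the 7 receptors shown lie right of 0, and the bars of *NTRK3* and *SHC1* are the widest.

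Profiles over the 4 libraries gave the genes most like the receptors among 55 genes of the other lists. The distance is the root mean square difference of log2 CPM after each gene was centred on its mean, so a smaller value is a closer match, and 4 libraries in 2 conditions allow many genes to match. *GDNF* was nearest to *ALK* at 0.0554, *SHC2* to *RET* at 0.0936, closely followed by *GDNF* at 0.0960, and *SH2B1* to *GFRA1* at 0.0368. The matches of *GFRA2*, *NGFR*, *NTRK2* and *NTRK3* were looser. *SORCS1* was nearest to *GFRA2* at 0.223 and to *NGFR* at 0.231, *GDNF* to *NTRK2* at 0.174 and *DOK6* to *NTRK3* at 0.479.

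Markers of the labelled cell type were higher in OE together with the receptors. Of 9 sympathetic neuroblastoma genes, 8 had counts and *TH*, the first enzyme of catecholamine synthesis, was at 0 in every library. In each of the 8 both OE libraries lay above both controls, 6 were higher at an unadjusted edgeR p under 0.05 (backgrounds of 27.8% and 10.1%), and their summed level was 456 and 524 CPM in the vector control against 892 and 850 CPM in OE. *CHGA*, a granule protein, had 1157 and 1141 against 3412 and 3512 counts (log2 fold change 1.39, edgeR adjusted p = 0.0449). The summed level of 5 Schwann cell genes was 7.52 and 6.77 CPM in the vector control and 4.10 and 3.63 CPM in OE, with *SOX10* at no more than 5 counts. Of 6 genes of other cells 3 were at 0 in every library, 1 was not in the table, and the highest count was 18, for *GFAP*. The part of the sympathetic genes in the receptor results was not tested, and in these bulk libraries a change in the mix of cells and a change per cell cannot be told apart.

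**Figure D5:**
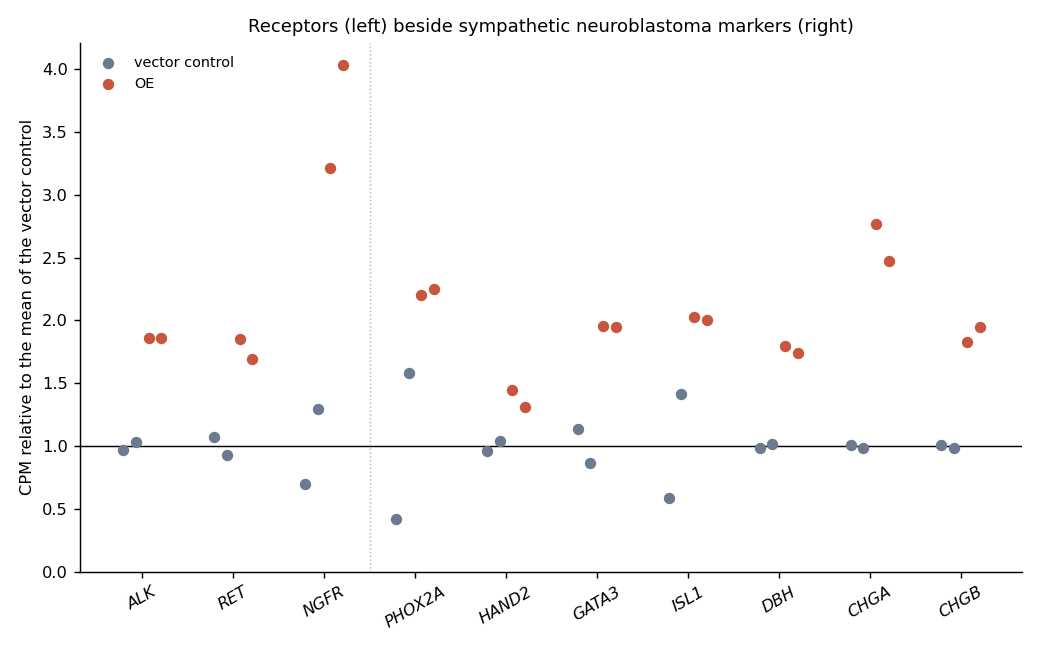
CPM in each library relative to the mean of the vector control (vertical axis, from 0; line at 1) for *ALK*, *RET* and *NGFR*, left of the dotted line, and 7 of the sympathetic neuroblastoma markers with counts, right of it. Every OE point lies above every control point of the same gene.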

How the data were processed

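RNA-seq counts of 4 SK-N-SH libraries were grouped by the treatment label. The authors extracted RNA with TRIzol, sequenced it with paired ends, used Trimmomatic for trimming and Bowtie2 for mapping to hg19 (version 2.0.4 in the submitters' processing notes). The deposited values are raw counts per transcript, for 196520 transcripts. The notes also list StringTie 2.1.6 without a role, so the whole-number counts may be estimates. The counting tool, annotation release and strand setting are not given in the sources used here.

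Counts were summed per gene and tested with edgeR 4.0.16 (R 4.3.3; filterByExpr, TMM, quasi-likelihood test, Benjamini-Hochberg adjustment over 20528 genes), OE against vector control, without covariates. Standard errors were the log2 fold change divided by the square root of F. The study named DESeq2, which was run as an alternative (1.42.0), as was limma-voom (limma 3.58.1). Mitochondrial genes took 6.01% to 6.50% of the counts. Limits for a count of 0 and intervals cover counting error only. CPM per kilobase used the union of exons of listed transcripts in GENCODE v44lift37. Profiles used a pseudocount of 0.5 CPM.

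Named genes were every member, *RP5-998N21.4*, and from the 4 other lists every called gene, the 4 smallest p at a mean of at least 1 CPM, the tested ligands of the members, the gene with the highest level per kilobase, and the nearest profile of each member. Members and lists were chosen with earlier results of these data known. The results of some genes under this rule are not reported here.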

Additional observations from a re-analysis of the deposited data

How the results depend on the processing

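With 2 libraries per condition the number of called genes depended on the tool and the threshold more than on normalization. Of all tested genes, DESeq2 called 1800, edgeR with a minimum of 1 count in total 9, edgeR on the most abundant transcript of each gene 1, an adjusted p under 0.05 gave 122 and an unadjusted p under 0.05 gave 4269. Among the receptors DESeq2 called 4 and the unadjusted p gave 4, among the ligands 1 and 3, among the other receptors 3 and 8, among the adaptors 2 and 4, and among the p75 partners 4 and 4. Leaving out single libraries gave 0 to 0 calls for all tested genes and for each list, in fits where a lone library is assumed to vary like the other condition. *FAM150B* had no value at a mean of at least 10 counts. The log2 fold changes of 4 genes turned direction: *NTRK3* ran from -0.38 to 7.15 without single libraries, *SHC1* from -2.90 to 3.11, *PTN* from -0.12 to 0.30 and *ARHGDIA* from -0.17 to 0.0922. Upper-quartile normalization gave 0.0009 for *ARHGDIA*, and the transcript with the highest mean count gave 0.11 for *ARHGDIA*. The cause was not tested. On the most abundant transcript *SHC2* was at 1.62, *FAM150B* at 2.86 and *NTF4* at -1.81. Of 428 combinations of a named gene and an alternative, 401 kept direction and side of the threshold, 16 passed the threshold only under the alternative, 15 of them with DESeq2, and 11 turned direction. Deviations of same-numbered libraries had a correlation of -0.0352 over 11458 genes. With 2 libraries per condition this cannot show whether same-numbered libraries were prepared together. With the replicate number as a block, 0 genes were called, *ALK* was at 0.90 and *SHC1* at 0.0585 on the log2 scale. Of 54 levels per kilobase, 11 moved by more than the spread between replicates, all with the length of the most abundant transcript. Depth limits *GFRA2*, *GFRA3*, *NTRK2*, *NTRK3* and *FAM150B*, which had 31 counts or fewer in every library.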

Other observations

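Among the 49 listed genes that averaged 4 CPM or more, 3 had replicates more than 4-fold apart, all of them adaptors. *SHC1* replicates differed by up to 24.0-fold, *DOK4* by 5.94-fold and *KIDINS220*, a Trk substrate also named ARMS, by 5.60-fold; *DOK4* and *KIDINS220* were chosen after their values were seen. The low *DOK4* value lay in the first OE library, where its main transcript had 474 counts against 2993, 2924 and 3987 in the others. The low *KIDINS220* value lay in the second OE library, with 934 counts on its main transcript against 4156, 4102 and 4553. The receptors with counts above 100 in every library (*ALK*, *RET* and *GFRA1*) had replicates close together.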
